A study of Mus musculus with 39 samples.

Results

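The 8 genes described here encode CHD chromatin remodelers of the mouse: Chd1, Chd2, Chd3, Chd4, Chd6, Chd7, Chd8 and Chd9. They were taken by symbol from both deposited TPM tables, and all 8 are among the 13230 genes that the tables share (13982 genes in gradient 1 and 13634 in gradient 2). The family was selected on measured values, the strong difference of Chd4 between dense and light fractions, so that contrast is given for all members as a description only. The question asked of the data was how far the other 7 genes shared the distribution of Chd4 and how closely the gradients matched.

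CHD proteins are ATP-dependent remodelers of the SNF2 class that slide, space or evict nucleosomes, and they are named for a tandem pair of chromodomains. Chd3 and Chd4 are Mi-2 ATPases of NuRD, a complex that joins remodeling to histone deacetylation. Chd1 and Chd2 form a subfamily that acts in transcribed chromatin, while Chd6, Chd7, Chd8 and Chd9 form another, in which Chd7 is the gene of CHARGE syndrome and Chd8 a repressor of beta-catenin signaling that is often mutated in autism.

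RNA came from livers of wild-type FVB female mice, an untreated condition shared by every library, and the age of the animals was not given in the sources used here. Tissue was broken with beads in the absence of detergent, nuclei were removed at low speed, and the remaining material was separated on a continuous sucrose gradient. Stranded libraries depleted of ribosomal RNA were made from 17 fractions of gradient 1 (4 to 19 and 21) and 22 fractions of gradient 2 (3 to 24), with 1 library per fraction and 39 in all. The gradients are the replicates, since fractions of the same gradient share a homogenate.

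Values are TPM, transcript abundances corrected for length, so levels can be compared between genes. Each library sums to a near constant total, from 998099 to 999202. A value is therefore the part of its library's transcripts that a gene takes up, and the depth of sequencing is unknown. Fractions 4 to 7 are called the light zone, 10 to 13 the middle zone and 16 to 19 the dense zone. Differences are between means of log2(TPM + 1), a scale that understates changes of low genes.

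All 6 hepatocyte markers were listed in both tables. Their summed TPM was 40942 in the light zone and 9346 in the dense zone of gradient 1, against 28700 and 18385 in gradient 2. The most abundant of them was Alb, which encodes albumin, in 25 libraries and Cps1, a urea cycle enzyme, in the other 14. The 5 Kupffer cell markers summed to 159 and 58.0 TPM in the light and dense zones of gradient 1 and to 157 and 75.1 TPM in gradient 2. The 4 sinusoidal endothelial markers summed to 53.9 and 27.9 TPM in gradient 1 and to 32.3 and 17.6 TPM in gradient 2, in the same order of zones, and the 3 listed stellate cell markers to 37.7 and 8.12 TPM and to 51.3 and 15.9 TPM. The 3 listed red blood cell markers summed to 575 and 144 TPM in gradient 1 and to 458 and 131 TPM in gradient 2, and the lymphocyte markers to 3.72 and 0.820 TPM (3 listed) and to 2.48 and 0.677 TPM (2 listed). These sets of markers were thus lower in the dense zone of each gradient, and their part in the results was not tested. The 2 listed cholangiocyte markers were near 0, at 1.62 and 3.23 TPM in gradient 1 and at 0.874 and 1.61 TPM in gradient 2. Because 1 homogenate supplied every zone of a gradient, zones are not separate samples of cells. Between the gradients, which come from separate homogenates of bulk tissue, fewer cells of a type and less RNA per cell cannot be told apart.

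Chd4 was the most abundant member over the 17 shared fractions, at 54.7 ± 25.7 TPM (SD, n = 2 gradients). This mean weighs all fractions alike and uses the light and dense values that chose the family, so its rank is a description only. In fractions 4 and 5 of both gradients Chd4 was the lowest member. Chd8 followed at 21.7 ± 6.16 TPM, Chd1 at 21.1 ± 1.69 TPM, Chd3 at 18.9 ± 0.211 TPM, Chd2 at 16.2 ± 0.837 TPM and Chd9 at 15.0 ± 1.53 TPM. Chd7 (7.29 ± 1.79 TPM) and Chd6 (5.52 ± 0.0583 TPM) were the lowest. The place of Chd8 rests on gradient 1, and its spread takes in Chd1, Chd3 and Chd2; Chd2 and Chd9 also lay closer together than their spread. In gradient 2 Chd8 (17.3 TPM) was below Chd1 (22.3 TPM) and Chd3 (18.7 TPM). The values of Chd4 in each gradient, 72.9 and 36.5 TPM, lay above those of every other member. Gradient 1 thus held 2.00 times the mean level of Chd4 in gradient 2. Chd8 and Chd7 were also higher in gradient 1, at 26.0 against 17.3 TPM and 8.55 against 6.02 TPM, and the ratio for the other 5 genes was between 0.893 and 1.16.

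**Figure D1:**
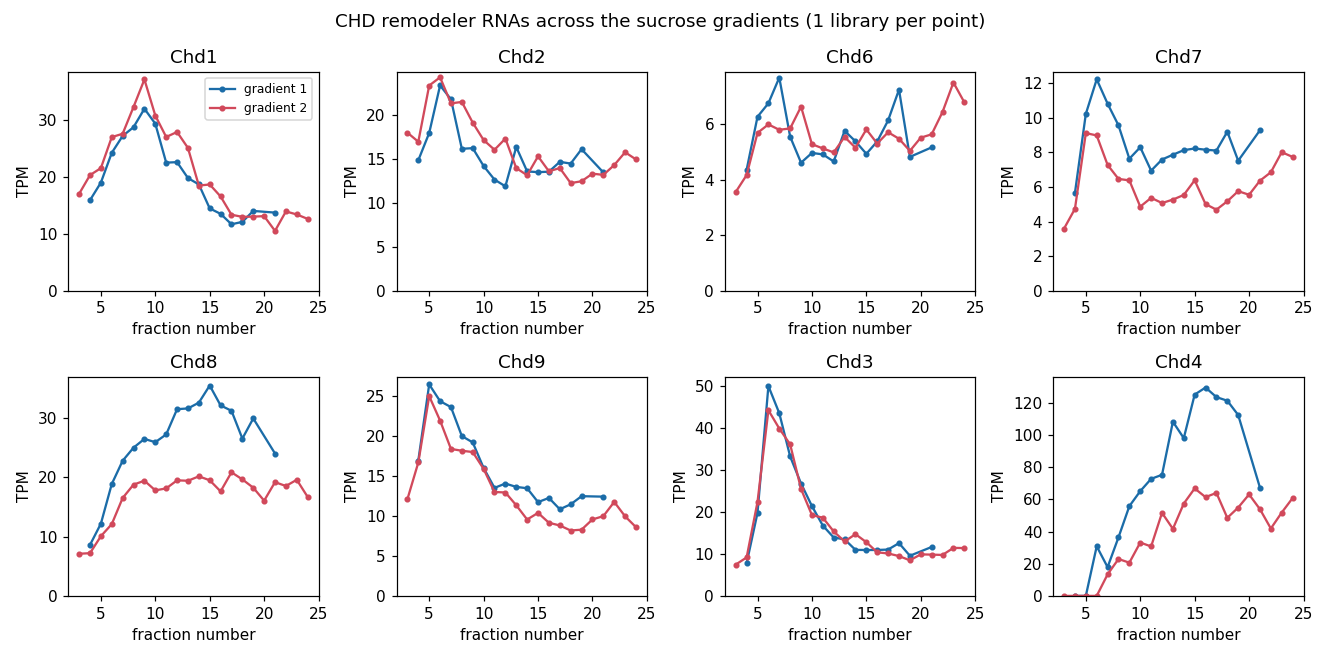
TPM of each CHD gene (vertical axes, each with its own scale from 0) against fraction number (horizontal axes, light to dense) in gradient 1 (blue) and gradient 2 (red), with 1 library per point. Over the 17 shared fractions Chd4 and Chd8 peak at fractions 15 to 17 and the other 6 genes at fractions 5 to 9.

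Chd4, an ATPase of NuRD, was listed at or near 0 in the lightest fractions. In gradient 1 it was listed at 0 in fractions 4 and 5, at 30.8 TPM in fraction 6 and at 17.9 TPM in fraction 7. In gradient 2 it was listed at 1.09e-08 TPM in fraction 3, 0 in fraction 4, 0.00537 TPM in fraction 5, 0.00732 TPM in fraction 6 and 13.4 TPM in fraction 7. The gradients therefore differed at fraction 6, where only gradient 1 had Chd4 above 0.01 TPM. The values step from 0 to 30.8 TPM within 1 fraction of gradient 1 and from 0.00732 to 13.4 TPM within 1 fraction of gradient 2, and low RNA and a failed estimate cannot be told apart in tables of TPM.

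From fraction 8 on Chd4 was high in every library. It was at 36.4 and 55.8 TPM in fractions 8 and 9 of gradient 1 and at 22.9 and 20.7 TPM in those of gradient 2. Across the middle zone it ran from 65.1 to 108 TPM in gradient 1 and from 30.7 to 51.6 TPM in gradient 2. Fractions 14 and 15 held 98.1 and 125 TPM in gradient 1 and 57.4 and 66.8 TPM in gradient 2. Every library of fractions 14 and 15 was above every library of fractions 8 and 9 in the same gradient. The dense zone held 129.5, 124, 121 and 112 TPM in gradient 1 and 61.4, 64.0, 48.5 and 54.9 TPM in gradient 2, so the dense libraries of a gradient lay above all of its light libraries.

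Such values near 0 in light fractions were rare. Of 7233 genes whose mean was 10 TPM or more, 18 had a light value below 0.01 TPM in both gradients, and 2 of these, one of them Chd4, had at least 2 such values in each gradient. Apart from Chd4, most of the 18 were microRNA, small nucleolar RNA or histone loci. Whether their values and those of Chd4 are failed estimates was not tested. No other CHD gene was below 3.56 TPM in any of the 39 libraries, whereas Chd4 was below 0.01 TPM in 6. Without counts no limit of detection can be given for the values listed at 0.

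Chd3, also a Mi-2 ATPase, was higher in the light than in the dense zone. Within the light zone it was lowest at fraction 4 in both gradients, as was every other member. For Chd4 the low of 0 was shared with fraction 5 in gradient 1. Chd3 peaked at fraction 6 in both gradients, at 49.9 and 44.2 TPM, which is 2.62 and 2.36 times its mean. It was at 7.78 TPM in fraction 4 of gradient 1 and 9.15 TPM in that of gradient 2, and lay between 8.46 and 12.5 TPM in all 8 libraries of the dense zone. The log2 ratio of Chd4 to Chd3, on log2(TPM + 1), went from -4.37 at fraction 5 to 3.45 at fraction 16 in gradient 1. In gradient 2 it went from -5.49 at fraction 6 to 2.56 at fraction 19. The low ends are set by Chd3 and the pseudocount, because Chd4 was listed at or near 0 there. The ratio was first above 0 at fraction 8 of gradient 1 and at fraction 10 of gradient 2.

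The share of Chd4 in the summed TPM of the family was higher in the dense than in the light zone, with decreases between some neighboring fractions. In gradient 1 it was 16.2% at fraction 6, 10.2% at fraction 7, 35.2% at fraction 10, 57.5% at fraction 16 and 42.9% at fraction 21. In gradient 2 it was 0.00507% at fraction 6, 23.0% at fraction 10, 44.2% at fraction 16, 46.4% at fraction 20 and 33.9% at fraction 22. Meanwhile the sum of the other 7 genes was highest at fraction 6. It went from 159.7 TPM there to 94.4 TPM at fraction 19 in gradient 1, and from 144 TPM to 71.3 TPM in gradient 2. At fraction 4 the sum was lower than at fraction 6, at 74.1 TPM in gradient 1 and 79.2 TPM in gradient 2.

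**Figure D2:**
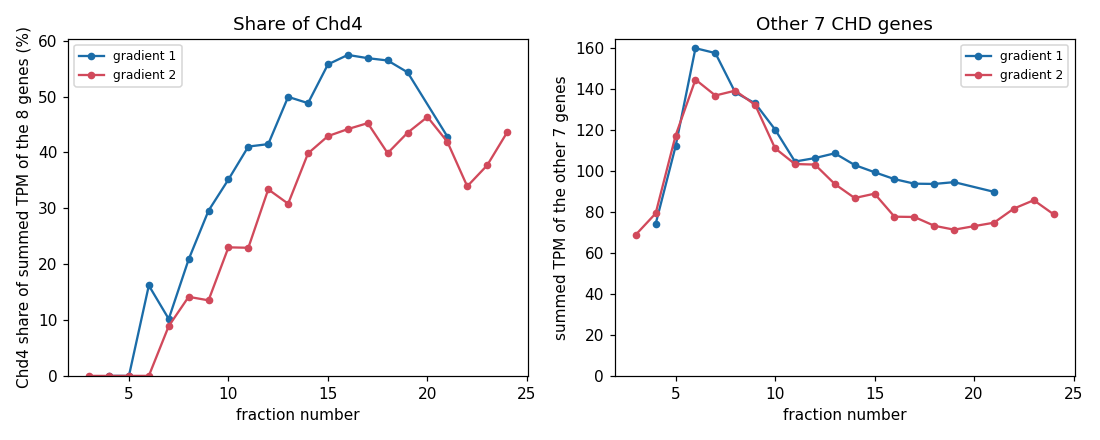
Left, share of Chd4 in the summed TPM of the 8 CHD genes (vertical axis, percent) against fraction number; right, summed TPM of the other 7 genes against fraction number, in gradient 1 (blue) and gradient 2 (red), 1 library per point. The share of Chd4 reaches 57.5% in gradient 1 and 46.4% in gradient 2, while the sum of the others is highest at fraction 6 in each gradient.

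Between the dense and light zones, the contrast that chose the family, Chd4 differed by 4.63 in gradient 1 and 4.89 in gradient 2 (mean 4.76). The mean was the largest of 11754 differences, while in gradient 1 alone Chd4 was at percentile 99.99 and not first. Its mean TPM in the dense zone was 10.0 times that in the light zone of gradient 1 and 17.1 times in gradient 2. The rank and these ratios use the light values near 0, which may be failed estimates. Chd8 had a mean difference of 0.86, or between 0.55 and 1.17 with 1 zone mean left out. Its dense means were 1.92 and 1.66 times the light ones. Chd3 differed by -1.18, Chd9 by -1.02, Chd1 by -0.71 and Chd2 by -0.52. Chd7 was at -0.30, but at 0.15 with quantile normalization and between -0.60 and -0.01 with 1 zone mean left out. Chd6 was at -0.07 in gradient 1 and 0.00 in gradient 2 (mean -0.03), and its mean was 0.52 with quantile normalization. The median over all genes was -0.43, with 22.3% of genes called higher and 39.6% lower by limma at an adjusted p under 0.05. With quantile normalization that median became -0.05. Whether Chd4 differed from the other members was not tested.

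The size of the Chd4 difference rests on the libraries in which it was near 0. With fraction 7 as the only light fraction, a choice made after seeing the data, it was 2.35, and with a pseudocount of 0.1 in place of 1 it was 6.82. In light means of 12.2 TPM (gradient 1) and 3.35 TPM (gradient 2), fractions 6 and 7 carried all of the signal in gradient 1, and fraction 7 nearly all of it in gradient 2.

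Fractions 8, 9, 14 and 15 were not used by the contrast that chose the family, although they come from the same homogenates. Chd4 was higher in fractions 14 and 15 than in fractions 8 and 9 by 1.28 in gradient 1 and 1.47 in gradient 2, and its mean TPM was 2.42 and 2.85 times as high. The mean difference of 1.37 (SE 0.62, limma adjusted p = 0.0996, higher in 2 of 2 gradients) was not past the threshold of 0.05. When fractions were compared within a homogenate, by a block for the gradient, the SE was 0.12 and the adjusted p 3.97e-05. With a mean left out the difference lay between 0.86 and 1.88, and over all alternatives the adjusted p ran from 3.97e-05 to 0.388, the highest without the mean of fractions 8 and 9 of gradient 2. Chd4 was chosen for a difference in the same direction between neighboring fractions of these homogenates, and the block was fitted with those fractions included, so these p-values are no independent support for the direction.

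Without the block and without quantile normalization no member was called higher in fractions 14 and 15. Limma called 0 of 8 members higher, where 14.4% of all genes were, and 0 also at an unadjusted p under 0.05; it called 3 lower, where 35.9% of all genes were. With the block it called 1 higher (25.6% of all genes) and 4 lower (49.8%). Chd3 fell by 1.23 (SE 0.16, adjusted p = 7.27e-04), from 30.3 ± 0.557 to 12.3 ± 1.98 TPM (SD, n = 2 gradients). Chd1 fell by 0.85 (SE 0.17, adjusted p = 0.00407), from 32.5 ± 3.07 to 17.5 ± 1.41 TPM. Chd9 fell by 0.70 (SE 0.20, adjusted p = 0.0205), from 18.9 ± 1.08 to 11.3 ± 1.86 TPM. All 3 were lower in both gradients, and 90.8% of all genes had the same sign in both.

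The calls for Chd1 and Chd9 depended on scaling, and that for Chd9 also on single means. With quantile normalization the differences were -0.85 for Chd3 (adjusted p = 0.00558), -0.52 for Chd1 (adjusted p = 0.0811) and -0.29 for Chd9 (adjusted p = 0.123), and 1.66 for Chd4 (adjusted p = 0.0443), while the median of all genes moved from -0.39 to 0.02 and the share of higher among called genes from 28.7% to 55.2%. Chd9 was also not called without the mean of fractions 8 and 9 of gradient 1 (adjusted p = 0.0987) or gradient 2 (adjusted p = 0.0632), or of fractions 14 and 15 of gradient 2 (adjusted p = 0.0980). The remaining 4 members were not called: Chd2 at -0.36 (adjusted p = 0.119, or 0.0285 with the block), Chd8 at 0.22 (adjusted p = 0.624), Chd7 at -0.08 (adjusted p = 0.848) and Chd6 at -0.07 (adjusted p = 0.765), of which Chd2, Chd7 and Chd6 turned to 0.03, 0.41 and 0.45 with quantile normalization.

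**Figure D3:**
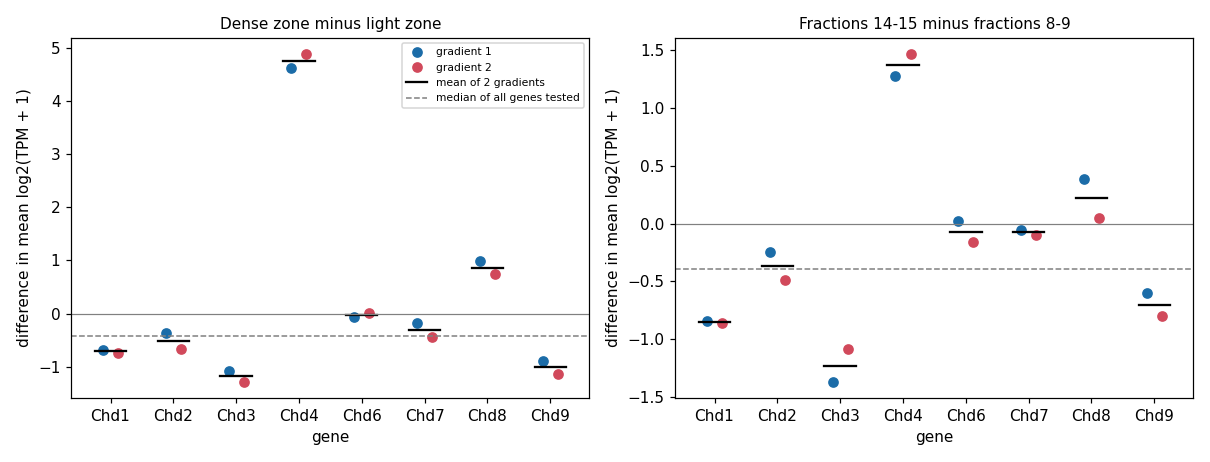
Difference in mean log2(TPM + 1) (vertical axes) for each CHD gene (horizontal axes), dense minus light zone on the left and fractions 14 and 15 minus fractions 8 and 9 on the right. Points are the 2 gradients, black bars their mean and the dashed line the median of all genes tested; Chd4 is highest in both panels, at 4.76 and 1.37, and Chd3 lowest, at -1.18 and -1.23.

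Chd1 and Chd2, the remodelers of transcribed chromatin, peaked at different fractions, and the R of their profiles of log2(TPM + 1) over the 17 shared fractions was 0.351 in gradient 1 and 0.719 in gradient 2. Chd1 peaked at fraction 9 in both gradients, at 31.9 and 37.0 TPM. Its TPM was 22.8 ± 1.78 in the light zone (SD, n = 2 gradients), 25.6 ± 2.92 in the middle zone and 13.4 ± 0.814 in the dense zone. It lay between 11.6 and 14.0 TPM in the dense zone of gradient 1 and between 12.9 and 16.5 TPM in that of gradient 2, below all middle libraries of the same gradient. Chd2 peaked at fraction 6 (23.4 and 24.3 TPM), and its TPM went from 20.5 ± 1.41 in the light zone to 14.9 ± 1.66 in the middle zone and 13.9 ± 1.16 in the dense zone. Its middle and dense values overlapped.

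Of the subfamily of Chd6 to Chd9, Chd9 was the most tilted to light fractions and Chd8 to dense ones. Chd9, with a peak at fraction 5 in both gradients (1.65 and 1.80 times its mean), had 22.9 TPM in the light zone of gradient 1 and 11.8 TPM in its dense zone, and 20.5 and 8.62 TPM in those of gradient 2. Chd8 went from 8.61 TPM at fraction 4 to 22.8 TPM at fraction 7 and 35.5 TPM at fraction 15 in gradient 1, and from 7.21 to 16.5 and 19.5 TPM at the same fractions of gradient 2. The low values of Chd8 in gradient 2 were thus in the lightest fractions, and it lay between 16.1 and 20.9 TPM in every fraction from 7 to 24.

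Chd7 and Chd6 were the least abundant members. The coefficient of variation over the 17 shared fractions was 18.1% and 22.4% for Chd7, near the 19.7% and 23.2% of Chd2, and 17.2% and 9.71% for Chd6. Chd7 peaked at 12.2 TPM in fraction 6 of gradient 1 and 9.12 TPM in fraction 5 of gradient 2, with light means of 9.73 and 7.53 TPM and dense means of 8.24 and 5.15 TPM. Chd6 ranged from 4.36 to 7.68 TPM in gradient 1 and from 3.56 to 7.50 TPM in gradient 2, with light means of 6.26 and 5.41 TPM and dense means of 5.90 and 5.38 TPM. The light and dense libraries of Chd6 overlapped in each gradient.

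Between the middle and light zones, the 7 members other than Chd4 were tested over all 11754 genes. Limma called 0 of the 7 higher (23.5% of all genes were; 1 member, Chd8, was at an unadjusted p under 0.05) and 1 lower (24.1% of all genes were). The call was Chd3, which fell by 0.57 (SE 0.18, adjusted p = 0.0419, lower in 2 of 2 gradients), from 29.5 ± 0.961 to 16.4 ± 0.116 TPM (SD, n = 2 gradients). It was lost without the light or middle mean of either gradient (adjusted p from 0.161 to 0.204, and from 0.00570 to 0.760 over all alternatives), and it turned to 0.08 with both zones moved by 1 fraction to the light side, which takes fraction 7 out of the light zone and fraction 13 out of the middle zone and adds fraction 9 to the middle zone and, in gradient 2, fraction 3 to the light zone. Chd8 was at 0.83 (limma adjusted p = 0.0807), Chd9 at -0.60 (0.0630), Chd2 at -0.42 (0.116), Chd7 at -0.35 (0.380) and Chd1 at 0.17 (0.489). Chd6 was at -0.14 (0.593, and 0.08 in place of -0.14 with quantile normalization). With a mean left out Chd8 lay between 0.52 and 1.13, and Chd7 between -0.60 and -0.10. Likewise Chd1 lay between 0.05 and 0.29, and Chd6 between -0.22 and -0.05. With the block 1 member was called higher (37.2% of all genes were) and 4 lower (35% of all genes were), and the adjusted p was 0.00203 for Chd8, 0.00788 for Chd9, 0.0330 for Chd2 and 0.0479 for Chd7. Chd4 differed by 4.17, with no test because it shares the light zone with the contrast that chose it.

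Between the dense and middle zones the order changed. Limma called 0 of the 7 members higher (4.79% of all genes were), 0 also at an unadjusted p under 0.05, and 1 lower (22.5% of all genes were). The call was Chd1, which fell by 0.88 (SE 0.19, adjusted p = 0.0210, lower in 2 of 2 gradients). With any 1 of the 6 zone means left out the difference of Chd1 was -0.76 or further below 0 and its adjusted p between 0.0507 and 0.146; without either middle mean limma called 0 of 11754 genes in this contrast, so no call of Chd1 could be made there. Quantile normalization also ended the call, with a difference of -0.50 (adjusted p = 0.157). Chd3 was at -0.61 (adjusted p = 0.0505, or 0.00718 with the block) and Chd9 at -0.41 (0.216, or 0.0377 with the block), so that the block gave 3 lower (39.3% of all genes were) and 0 higher (14.1% were). Chd2 (-0.09, or 0.26 with quantile normalization), Chd6 (0.10), Chd7 (0.05) and Chd8 (0.03) differed by less than their SE. Chd4 differed by 0.62 in gradient 1 and 0.55 in gradient 2, with dense means 1.51 and 1.46 times the middle ones, again with no test, and its difference lay between 0.0439 and 1.13 with a mean left out. Most of its 4.76 between light and dense was thus between light and middle.

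The bottom of gradient 2 was compared with its dense zone. The difference between fractions 22 to 24 and the dense zone, with 1 library per fraction and no replicate, was -0.16 for Chd4, 0.47 for Chd7, 0.31 for Chd6, 0.20 for Chd9, 0.19 for Chd2, 0.16 for Chd3 and -0.06 for both Chd1 and Chd8, against a median of -0.10 over all genes. Chd7 was thus close to the 95th percentile of all genes, 0.50. In gradient 1 the last library, of fraction 21, had Chd4 at 67.3 TPM, lower than fractions 18 and 19 by -0.79; in gradient 2 fraction 21 held 53.9 TPM, with a difference of 0.06.

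Profiles over the 17 shared fractions were compared between the gradients by Pearson's R of TPM. It was 0.980 for Chd3, 0.960 for Chd9, 0.955 for Chd1, 0.919 for Chd4, 0.906 for Chd8, 0.793 for Chd7, 0.700 for Chd2 and 0.366 for Chd6, against a median of 0.904 over all genes. Spearman's rho was 0.909, 0.941, 0.946, 0.918, 0.696, 0.610, 0.480 and 0.458 in the same order. Without fractions 4 to 6, a choice made after seeing the data, R was 0.925 or more for Chd3, Chd9 and Chd1, 0.861 for Chd4, 0.474 for Chd8, 0.594 for Chd7, 0.502 for Chd2 and 0.130 for Chd6, with a median of 0.859 over all genes. With each fraction of gradient 1 set against the next denser fraction of gradient 2, R was 0.937 for Chd4, 0.237 for Chd7, lower still for Chd6, and between 0.592 and 0.908 for the other 5 genes, with a median of 0.800 over all genes. With each set against the next lighter fraction, R was 0.925 for Chd4 and 0.226 for Chd6, and between 0.706 and 0.911 for the other 6 genes, with a median of 0.793 over all genes. Neighboring fractions are not independent, and these values have no test.

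The center of sedimentation, the mean fraction number weighted by TPM, placed Chd4 at 14.5 in gradient 1 and 14.8 in gradient 2. These centers were at percentiles 94.4 and 97.9 of all genes. They use the light and dense values that chose the family, so the place of Chd4 is a description only. Chd8 followed at 13.0 and 12.8, Chd6 at 12.0 and 12.1, Chd7 at 11.9 and 11.6, Chd2 at 11.6 and 11.1, Chd1 at 11.0 and 10.9, Chd9 at 10.8 and 10.5, and Chd3 at 10.2 and 10.1. The order of the 8 genes was the same in both gradients. The median over all genes was 11.3 in each.

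Among the members, profiles of log2(TPM + 1) were compared pair by pair within each gradient. Of the 7 pairs with Chd4, 2 had a positive R in gradient 1, with Chd8 (0.954) and Chd7 (0.005), and 2 in gradient 2, with Chd8 (0.923) and Chd6 (0.107). On linear TPM only the pair with Chd8 was positive in each gradient. Of the 21 pairs without Chd4, 15 and 16 had a positive R, with medians of 0.488 and 0.537. Over the 17 fractions the R of Chd4 was -0.679 and -0.792 with Chd9, -0.136 and -0.426 with Chd3, and -0.161 and -0.294 with Chd1. Without fractions 4 to 6, a choice made after seeing the data, it was -0.925 and -0.883 with Chd9, -0.924 and -0.904 with Chd3, -0.732 and -0.717 with Chd1, and 0.776 and 0.565 with Chd8. The points share libraries, so these values are descriptions over 17 or 14 fractions.

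The genes with profiles most like Chd4, among 11363 that averaged 1 TPM or more in each gradient, were Nup205 (mean R 0.973), Gm6793 (0.966), Smarca4 (0.965), Zswim8 (0.965) and Aars2 (0.965). Nup205 encodes a scaffold nucleoporin of the nuclear pore, Smarca4 the ATPase BRG1 of SWI/SNF and Aars2 the mitochondrial alanyl-tRNA synthetase; Gm6793 overlaps Terf2ip on the opposite strand, Nup205 overlaps Gm23435 and Smarca4 overlaps Gm27373 on the same strand, and the values of these 3 genes are less certain for that reason. Smarca4 was at 18.8 TPM in the light zone and 64.2 TPM in the dense zone of gradient 1, and at 16.1 and 43.3 TPM in gradient 2. Nup205 was at 4.33 and 12.0 TPM in gradient 1 and at 4.09 and 12.2 TPM in gradient 2. Without fractions 4 to 6 their R with Chd4 lay between 0.695 (Gm6793, gradient 1) and 0.936 (Nup205, gradient 1).

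Outside the family, the genes most like the mean profile of the other 7 members were Ppp1r16a (mean R 0.958), Tns1 (0.958), Kdm6b (0.954), Rgp1 (0.954) and Zbtb22 (0.942). Among the members, Chd3 had a mean R of 0.976 with this profile, and Chd8 an R of 0.028 and -0.113 in the 2 gradients. Both genes are part of the mean, so these R are partly built in. The members entered the mean without scaling, so those with wide swings weigh most. Chd3 had the largest coefficient of variation of the 7, at 65.0% in gradient 1 and 60.4% in gradient 2. Kdm6b, a histone H3 demethylase, overlaps Kdm6bos on the opposite strand, Rgp1 overlaps Gba2 and Msmp on the opposite strand, and Zbtb22 overlaps Tapbp on the same strand. Kdm6b was at 27.5 TPM in the light zone and 13.0 TPM in the dense zone of gradient 1, and at 18.0 and 8.28 TPM in gradient 2. The mean profile itself had an R of -0.026 and -0.418 with Chd4, and of -0.907 and -0.876 without fractions 4 to 6.

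The partners of Chd3 and Chd4 in NuRD fell into opposite groups. All 12 listed partners were tested between the dense and light zones; 7 were higher (22.3% of all genes were), 4 lower (39.6% of all genes were) and 1 was not called, with a median difference of 1.08 against -0.43 over all genes. The histone deacetylase Hdac1 rose by 2.19 (SE 0.19, adjusted p = 4.82e-04), from 11.7 to 63.6 TPM in gradient 1 and from 11.8 to 50.2 TPM in gradient 2. The histone chaperone Rbbp7 rose by 2.19 (SE 0.15, adjusted p = 3.21e-04), from 27.2 to 129.0 TPM in gradient 1 and from 29.4 to 131 TPM in gradient 2. The other rises were of Mta3 (2.03), Rbbp4 (1.53), Mta2 (1.42), Hdac2 (1.10) and Gatad2b (1.06). The small subunit Cdk2ap1 fell by 3.21 (SE 0.15, adjusted p = 3.01e-04), from 123 to 12.7 TPM in gradient 1 and from 117 to 11.7 TPM in gradient 2, and Mbd3, Mta1 and Mbd2 fell by 2.53, 1.91 and 1.82. Gatad2a was at -0.71 (adjusted p = 0.0953). With quantile normalization 7 were higher (30.7% of all genes were) and 4 lower (29.9%). All 12 differences had the same sign in both gradients, as did 92.0% of the differences of all genes.

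In fractions 14 and 15 against fractions 8 and 9, 5 NuRD partners were higher (14.4% of all genes were), 5 lower (35.9%) and 2 not called, with a median of 0.53 against -0.39 over all genes. Hdac1 (1.43), Rbbp7 (1.08), Mta3 (0.96), Rbbp4 (0.94) and Gatad2b (0.70) were the 5 higher, and Cdk2ap1 (-2.59), Mbd3 (-1.92), Mta1 (-1.38), Mbd2 (-1.31) and Gatad2a (-0.94) the 5 lower. The 2 not called by limma were Mta2 (0.59, adjusted p = 0.143) and Hdac2 (0.48, adjusted p = 0.153). Of the paralogs that were called, Mta1 was lower and Mta3 higher, and Gatad2a lower and Gatad2b higher. In contrast, Rbbp4 and Rbbp7 were both higher and Mbd2 and Mbd3 both lower. Between the middle and light zones 7 partners were higher (23.5% of all genes were) and 4 lower (24.1%), and between the dense and middle zones 2 were higher (4.79%) and 4 lower (22.5%). Whether the shares of the partners differed from those of all genes was not tested.

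Other remodelers were also called in both directions. Of 19 further SNF2 ATPases, 17 were tested between the dense and light zones; 6 were higher (22.3% of all genes were), 3 lower (39.6%) and 8 not called, with a median of 0.33. Smarca4 had the largest rise, by 1.67 (SE 0.27, adjusted p = 0.00318), and Ercc6l2, a DNA repair factor, the largest fall, by 1.73 (SE 0.21, adjusted p = 0.00124). In fractions 14 and 15 against 8 and 9, 1 was higher (14.4% of all genes were), 3 lower (35.9%) and 13 not called. Of the 17 SWI/SNF subunits, 4 were higher, close to the 22.3% of all genes, 4 lower (39.6%) and 9 not called between the dense and light zones (7 were higher with the block, where 30.5% of all genes were, and 8 with quantile normalization, where 30.7% were), with a median of 0.01, and Smarcb1 rose by 2.41 (SE 0.21, adjusted p = 4.64e-04) while Phf10 fell by 1.09 (SE 0.18, adjusted p = 0.00327). In fractions 14 and 15 against 8 and 9, 2 SWI/SNF subunits were higher (14.4% of all genes were), 4 lower (35.9%) and 11 not called.

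RNAs that are retained in nuclei were lower in the dense zone. Of 5 such RNAs, 4 were tested, and all 4 were lower in the dense than in the light zone (39.6% of all genes were) and in fractions 14 and 15 than in 8 and 9 (35.9% were), with medians of -2.67 and -1.33. Malat1 fell by 4.11 (SE 0.41, adjusted p = 6.64e-04) between the light and dense zones. The summed TPM of the 4 was 323 in the light and 23.1 in the dense zone of gradient 1, and 592 and 28.9 in gradient 2. These RNAs were thus higher in the zone where Chd4 was lower, and their part in the profiles of the CHD genes was not tested.

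The members lie on 8 chromosomes of GRCm38, the assembly of mm10. Chd4 is at chr6:125095981-125130591 on the plus strand, and Chd3 at chr11:69343273-69369406 on the minus strand. Chd1 is at chr17:15704967-15772610 (plus), Chd2 at chr7:73426638-73541830 (minus), Chd6 at chr2:160946978-161109075 (minus), Chd7 at chr4:8690406-8867659 (plus), Chd8 at chr14:52198151-52257780 (minus) and Chd9 at chr8:90828352-91054516 (plus). The longest coding transcripts run from 6697 nucleotides in Chd4 to 12008 in Chd9. Chd4 has the shortest of the 8. A length was known for 10819 of the 11754 genes tested, and among these the median dense to light difference was lower in longer genes. The median was 0.04 under 2000 nucleotides (2891 genes), -0.28 from 2000 to 4000 (4353 genes) and -0.61 from 4000 to 6000 (2169 genes). It was -0.65 from 6000 to 8000 (850 genes) and -0.76 from 8000 to 100000 (555 genes). The part of length in the differences of the members was not tested.

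Reads of 6 members could be shared with other genes. Of 7372 distinct stretches of 31 nucleotides in Chd4 transcripts, 41 (0.556%) occur in other genes, 33 of them in Mir7045 and 8 in Chd3. Chd1 and Chd7 shared none. Chd2 shared 577 of 9502 (6.07%) with 1810026B05Rik, which overlaps it on the same strand and is in both tables, and Chd6 shared 306 of 10576 (2.89%) with Gm8291, so values of these genes are less certain. Chd8 shared 49 of 8633 (0.568%) with 3 genes, Chd3 8 of 7394 (0.108%) with Chd4, and Chd9 3 of 12646 (0.0237%), which occur in 14 other genes. Mir7045, a microRNA precursor, lies inside a Chd4 exon on the same strand, at chr6:125097024-125097086. Only the table of gradient 1 lists it, at 8.70 TPM in fraction 15, 14.7 TPM in fraction 19 and 0 in the other 15 fractions. Every listed gene reached 1 TPM in at least 1 fraction, so Mir7045 may have stayed below that in gradient 2. Reads that lie wholly within the precursor cannot be told apart from reads of Chd4. The mature sequences are shown because they mark the stretch of Chd4 exon that the tables can count as another gene (RefSeq, GRCm38.p6, with the seed, bases 2 to 8, in capitals):
mmu-miR-7045-5p: aGCGGGUGggggagggggacu
mmu-miR-7045-3p: uCUCCCCCcucccccgcacag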

How the data were processed

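According to the deposited records, the authors used bcl2fastq 2.16.0.10 and Kallisto with an mm10 RefSeq index, and they supplied 1 TPM table by gene symbol per gradient, in which 0 value columns matched no sample. The version of Kallisto and the way transcripts were summed to genes are not given in the sources used here. The lowest maximum of any listed gene was 1.0007 TPM in gradient 1 and 1.0001 TPM in gradient 2. A gene that was not listed may therefore have been present below that level. The tables have no counts, so counting error is unknown and precision can be judged only between gradients.

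Means of log2(TPM + 1) over the fractions of a zone were compared with limma (trend in eBayes), with n = 2 gradients per zone. The zones of 24 libraries entered 1 fit; fractions 8 and 9 and fractions 14 and 15 were compared in a second fit of all bins from fraction 4 to 19. The 11754 genes that averaged 1 TPM or more were tested, with Benjamini-Hochberg adjustment over all of them. Members were not tested between the dense and light zones, nor Chd4 in contrasts that share these zones. limma was tested on simulated data, and the outcome is not given here. The zones of a gradient share a homogenate, and gradient differences correlated across genes in all 10 pairs of zones (r from 0.540 to 0.798, across genes, which are not independent replicates), so a replicate block was fitted as well. P-values without the block rest on the spread between these 2 gradients within zones. That spread takes in a gene's difference in level between the gradients. P-values with the block rest on what is left once that difference is removed. In both fits limma draws the variance of a gene toward a trend over all genes.

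Genes named are the 8 members, the 5 genes most like Chd4 and the 5 most like the mean of the other members, the NuRD partners, the largest called rise and fall of each other list, and genes whose exons overlap Chd4. Members and lists were chosen with earlier results of these data known. Alternatives were the pseudocount, the TPM filter, quantile normalization, TPM rescaled without the 50 most abundant genes, the block, leaving out each zone mean, zone borders, the log scale of profiles, gradient 2 shifted by 1 fraction and, added later, the light zone of fraction 7 alone and profiles from fraction 7 on. Coordinates, transcripts and lengths are from GENCODE release M21 for GRCm38. Mitochondrially encoded RNAs, proteins and isoforms were not analysed here. Of the other markers checked, Col1a1 of stellate cells, Epcam of cholangiocytes, Hbb-bs and Hbb-bt of red blood cells and the nuclear RNA Meg3 were not listed. Tests ran in limma 3.58.1 under R 4.3.3, and other steps in Python 3.11.15 with SciPy 1.17.1, pandas 2.3.3 and NumPy 2.4.6.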

Additional observations from a re-analysis of the deposited data

How the results depend on the processing

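Between the dense and light zones 2 members were above 0 and 6 below, but 4 were above 0 with quantile normalization and 2 to 3 with 1 zone mean left out. Quantile normalization also moved the share of higher among all called genes from 36.0% to 50.6% between the dense and light zones, from 17.5% to 42.9% between the dense and middle zones and from 28.7% to 55.2% between fractions 14 and 15 and fractions 8 and 9. Between the middle and light zones, the count of members called higher (0) became 1 with quantile normalization (26.9% of all genes). It was also 1 with the block (37.2%) and with borders on the light side (26.6%). The count called lower (1) became 2 with quantile normalization (24.2% of all genes), 3 with TPM rescaled (27.3%) and 4 with the block (35%). Borders on the light side made it 0 (17.9%) and borders on the dense side 2 (27.1%), and it varied with a mean left out. The sign turned for Chd6 with quantile normalization (0.0801) and for Chd3 with borders on the light side (0.0835). For Chd1 it turned with borders on the dense side (-0.18) and with fraction 7 alone (-0.11). Between the dense and middle zones, the count called lower (1) became 2 with a pseudocount of 0.1 (23.3% of all genes). It was also 2 with a filter of 10 TPM (31.1%) and with borders on the light side (24.1%). Quantile normalization made it 0 (13.7%) and the block 3 (39.3%), and the call of Chd1 was lost with any mean left out. The sign turned for Chd2 with quantile normalization (0.26) and for Chd8 with borders on the dense side (-0.0592). With a mean left out it turned for Chd2 (-0.20 to 0.0159), Chd7 (-0.25 to 0.34) and Chd8 (-0.28 to 0.35). For fractions 14 and 15 against 8 and 9, the count called higher (0) became 1 with quantile normalization (26.5% of all genes) and with the block (25.6%). The count called lower (3) became 1 with quantile normalization (21.5%) and varied with a mean left out. The sign turned with quantile normalization for Chd2 (0.0279), Chd6 (0.45) and Chd7 (0.41). With a mean left out it turned for Chd6 (-0.20 to 0.0580), Chd7 (-0.28 to 0.12) and Chd8 (-0.15 to 0.60). Among the lists, SNF2 ATPases called higher (6) became 3 of 10 tested at a filter of 10 TPM, near the 30.8% of all genes there, SWI/SNF subunits called higher (4) became 8 with quantile normalization (30.7% of all genes) and 7 with the block (30.5%), and nuclear RNAs called lower (4) became 2 of 2 tested at a filter of 10 TPM (35.5%); fewer genes pass that filter. Positive pairs with Chd4 (2 in each gradient) became 1 in each on linear TPM and 1 in each from fraction 7 on, which, like the light zone of fraction 7 alone, was chosen after seeing the data. The causes of these changes were not tested. The block changed no other call of a member than those given beside their results. A mean left out leaves 1 gradient in its zone, which is assumed to vary like the other zones.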
